A study of Homo sapiens with 7 samples.

Results

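The microRNAs of the miR-143 and miR-145 cluster and of the miR-199 and miR-214 clusters were examined in lung-derived lines of the human tumor cell line MDA-MB-435. They are 6 assays, miR-143, miR-145, miR-199a-3p, miR-199a-5p, miR-199b-5p and miR-214, chosen by name from the 377 human microRNA assays of a TaqMan quantitative PCR card. The 3 oligometastatic L1-R2 lines (4T, 3T and 8T) were grown from lungs of athymic mice that had received L1-R1 cells, which came from lung macrometastases. The 4 polymetastatic lines of L1Mic-R2, named 2T, 3T, 7T and 8T, were grown from lungs of mice that had received L1Mic-R1 cells, which came from tumor cells in lung free of macrometastases. All lines carry green fluorescent protein, were purified by selection with the drug G418, and came from distinct animals. The parent lines L1-R1 and L1Mic-R1, however, came from the same lung of a single mouse. Each group thus descends from a single parent line, so that phenotype and parent line cannot be told apart. One card was run for each line, without a repeat, and the spread of a group is therefore that of single measurements of distinct lines.

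MiR-143 and miR-145 are made from one primary transcript that is abundant in smooth muscle and in fibroblasts, where miR-145 favors the contractile state of smooth muscle. MiR-199a and miR-214 are made from a second transcript, an antisense RNA within the DNM3 gene that is active in mesenchymal cells and is induced during fibrosis. The sequences of these microRNAs are highly conserved between human and mouse. In tissue they are often read as a sign of stroma, and in a culture taken from mouse lung they can therefore serve as a check for fibroblasts and smooth muscle of the host.

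The mature sequences are shown because they set what each assay can read. They were taken from RefSeq (GRCh38.p14), in which 5 of the 6 members had an entry, and are written 5′ to 3′ with the seed, bases 2 to 8, in capitals. An assay named without an arm was matched to the 3p arm for miR-143 and miR-214 and to the 5p arm for miR-145, the arms that bear these names.
miR-143: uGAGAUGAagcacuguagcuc
miR-145: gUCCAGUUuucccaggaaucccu
miR-199a-3p: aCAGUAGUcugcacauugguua
miR-199a-5p: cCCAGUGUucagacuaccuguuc
miR-214: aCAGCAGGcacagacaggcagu

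None of the 10 pairs among these 5 microRNAs had the same seed. MiR-199a-3p and miR-214 were the most alike, with 5 of the 7 seed positions identical. MIR143 (chromosome 5, 149428918 to 149429023, plus strand) and MIR145 (chromosome 5, 149430646 to 149430733, plus strand) are separated by 1622 bases. MIR199A2 (chromosome 1, 172144535 to 172144644, minus strand) and MIR214 (chromosome 1, 172138798 to 172138907, minus strand) are separated by 5627 bases. MiR-199a-5p and miR-199a-3p are the arms of MIR199A2 and also of MIR199A1 on chromosome 19. The 3p arm of MIR199B on chromosome 9 is identical to miR-199a-3p over all 22 bases, so that the miR-199a-3p assay reads the product of 3 hairpins and cannot tell them apart.

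These microRNAs were almost undetected in the lines. The measured value is the threshold cycle (Ct), the PCR cycle at which a well crosses a fixed fluorescence, and each cycle less stands for about 2 times more RNA. A well that did not cross it is Undetermined and has a Ct of 40 in the files. The 5 members miR-143, miR-145, miR-199a-5p, miR-199b-5p and miR-214 were Undetermined in all 7 lines, as were 36.6% of the 377 microRNAs (138). MiR-199a-3p alone gave a Ct, in 3 lines, whereas 59.7% of the 377 microRNAs were below a Ct of 38 in at least 1 line and 35.8% in all 7. Of the 42 wells of the members 39 were thus Undetermined (92.9%), against 51.7% of the 2639 microRNA wells of the 7 cards. An Undetermined well means that the RNA was not detectable by cycle 40 in the cDNA used, not that it was absent.

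**Figure D1:**
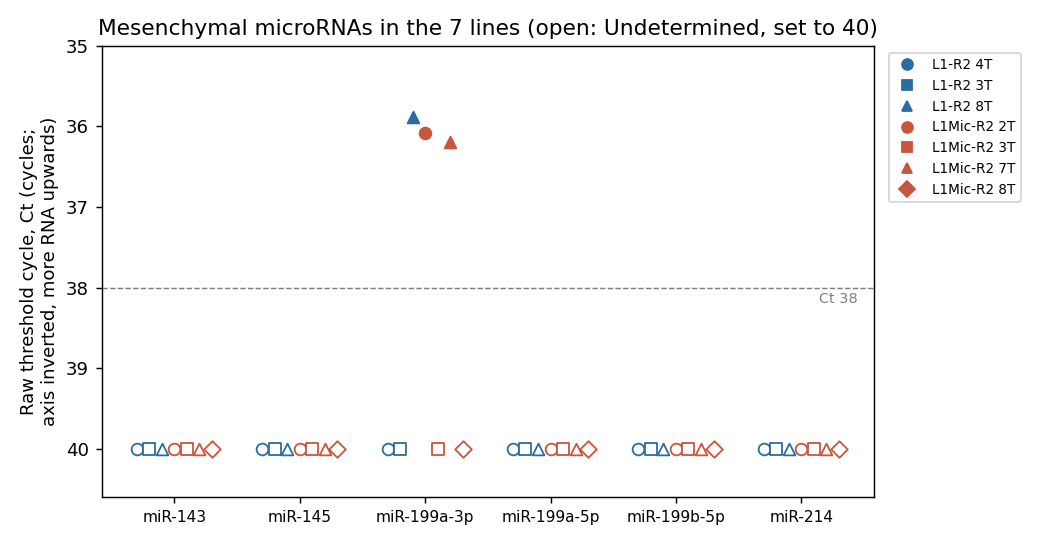
Raw Ct of the 6 members (x axis) in the 7 lines, in cycles on an inverted axis, with blue for L1-R2, red for L1Mic-R2 and a symbol for each line. Filled symbols are wells with a Ct and open symbols are Undetermined wells, set to 40. The 3 filled symbols are all miR-199a-3p, between 35.88 and 36.19.

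The wells of the members were also read by a second value, which is not a measure of the amount of RNA. For each well the files hold, beside the Ct, an unlabelled fluorescence value that was below the threshold of 0.3 in every Undetermined well and above it in every well with a Ct. In the 1364 Undetermined microRNA wells its median was 0.0267, with a 5th percentile of -0.00957 and a 95th percentile of 0.156, and in the 1275 wells with a Ct the median was 1.85.

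The smooth muscle pair was read first. MiR-143 had fluorescence values of 0.0593, 0.0598 and 0.0741 in 4T, 3T and 8T of L1-R2, and 0.0555, 0.0504, 0.0597 and 0.0466 in 2T, 3T, 7T and 8T of L1Mic-R2. All 7 lay above the median of Undetermined wells, as did all 7 of miR-199a-5p and none of miR-199b-5p. Of the 39 Undetermined wells of the members, 27 lay above that median. None of the miR-143 wells reached the threshold, and the groups overlapped. MiR-145 had 0.0382, 0.0557 and 0.0291 in the L1-R2 lines and 0.0312, 0.0374, 0.0177 and 0.0287 in the L1Mic-R2 lines, in the same order. The groups overlapped for miR-145 as well. Below the threshold these values give no level, so that neither overlap compares an amount of RNA.

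In the second cluster, miR-214 had 0.0389, 0.0282 and 0.0272 in 4T, 3T and 8T of L1-R2 and 0.037, 0.0958, 0.0627 and 0.0171 in 2T, 3T, 7T and 8T of L1Mic-R2. The value of 0.0958 in L1Mic-R2 line 3T was the highest of the 39 Undetermined wells of the members, and it lay within the central 90% of all Undetermined wells. MiR-199a-5p ran from 0.0279 to 0.0579 and miR-199b-5p from -0.00436 to 0.0222, and their groups overlapped too. MiR-199b-5p is one of the microRNAs that the study prioritized in tumors of patients, and no level of it could be compared between these lines.

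**Figure D2:**
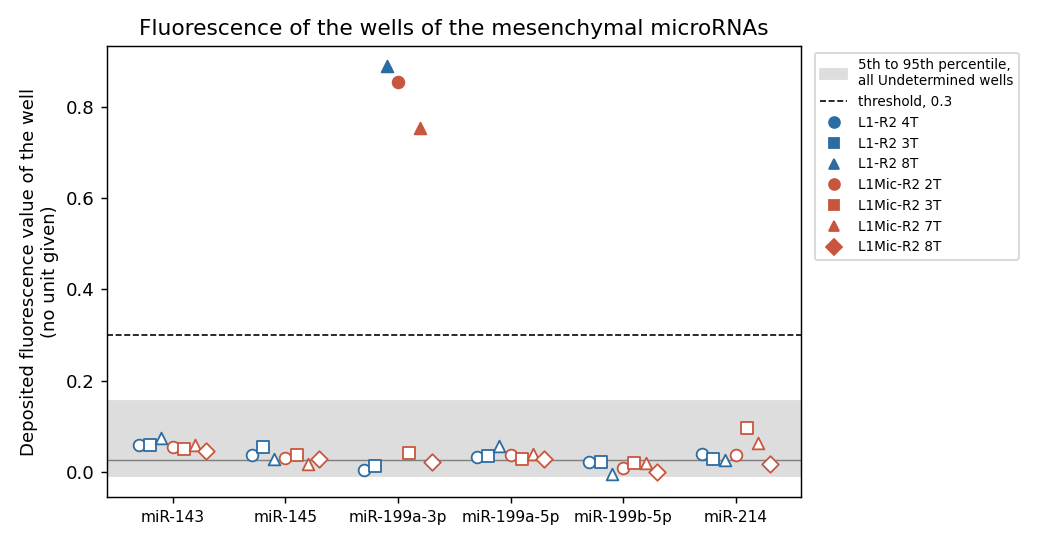
Deposited fluorescence value (y axis, no unit given) of the wells of the 6 members (x axis) in the 7 lines, colored and marked by line, with the threshold of 0.3 as a broken line. The grey band spans the 5th to the 95th percentile of all Undetermined microRNA wells and the thin line is their median, 0.0267. The 3 miR-199a-3p wells with a Ct lie between 0.753 and 0.888, and the other 39 wells lie at or below 0.0958.

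MiR-199a-3p, a microRNA for which MET and MTOR are known targets, gave a Ct of 35.88 in L1-R2 line 8T. It gave 36.08 in L1Mic-R2 line 2T and 36.19 in L1Mic-R2 line 7T, and was Undetermined in 4T and 3T of L1-R2 and in 3T and 8T of L1Mic-R2. The lines thus fell into 3 within 0.32 cycles of each other and 4 that did not cross the threshold, and both kinds occurred in both groups. The 3 wells had fluorescence values of 0.888, 0.855 and 0.753, within the 0.468 to 1.84 of the 91 microRNA wells with a Ct within 0.5 cycles of 36.08. The other 4 wells had 0.00495 and 0.0136 (4T and 3T of L1-R2) and 0.0407 and 0.0213 (3T and 8T of L1Mic-R2). None of these 4 was near the threshold, and in L1-R2 line 8T the Ct was at least 4.12 cycles earlier than in them, in L1Mic-R2 line 2T at least 3.92 and in line 7T at least 3.81.

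MiR-199a-3p was detected, at a Ct below 38, in 1 of 3 L1-R2 lines and in 2 of 4 L1Mic-R2 lines (Fisher's exact test, two-sided, p = 1). It was also the only member that entered the comparison of the groups, which needed a Ct below 38 in 3 or more lines and so took 181 of 377 microRNAs (48.0%). After quantile normalization the L1-R2 lines had a mean Ct of 38.62 ± 2.40 (SD, n = 3), and the L1Mic-R2 lines one of 38.23 ± 2.08 (SD, n = 4). On the log2 scale L1Mic-R2 lay above L1-R2 by 0.39 (standard error 1.52, 95% confidence interval -3.32 to 4.10, adjusted p = 0.895 from limma), far below the SD within either group. The exact two-sided permutation test of the means gave p = 1, where 0.0286 is the smallest p that 3 lines against 4 allow. The direction is not settled, since it turned when L1-R2 line 4T or line 3T was left out (-0.30 and -0.31). No member passed an adjusted p under 0.05, and 0 passed an unadjusted p under 0.05 with limma, in any of the fits run. Over all 181 microRNAs tested with limma, 9 (4.97%) passed the adjusted threshold and 35 (19.3%) the unadjusted.

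Detection in some lines and not in others was common on these cards. Of the 377 microRNAs, 152 were below a Ct of 38 in no line, 135 in all 7 and 90 (23.9%) in 1 to 6 lines. In exactly 3 lines there were 16, miR-199a-3p among them. Where these 16 were detected, their median Ct ran from 33.97 to 37.49, and that of miR-199a-3p, 36.08, was later than in 9 of the others. No other microRNA was detected in the same 3 lines. A Ct later than 35 was given by 300 of the 1275 microRNA wells with a Ct (23.5%). Each member had 1 well on a card, so that the repeatability of a late Ct was not measured.

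**Figure D3:**
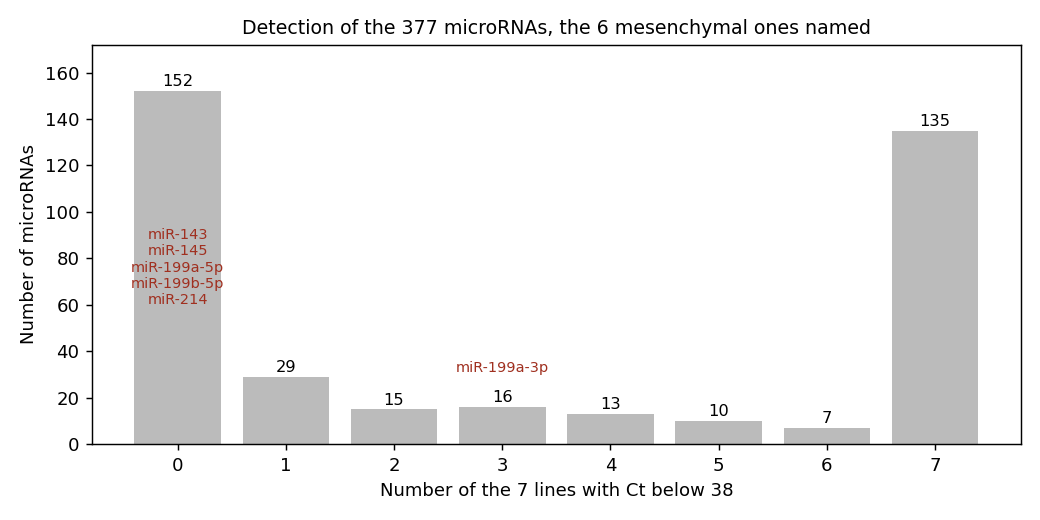
Number of microRNAs (y axis) by the number of the 7 lines in which their raw Ct was below 38 (x axis), for all 377. The 5 members Undetermined everywhere are among the 152 microRNAs detected in no line, and miR-199a-3p is among the 16 detected in 3.

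The partners of miR-199a-3p were not seen with it. In the 3 lines with a miR-199a-3p Ct, the fluorescence of miR-199a-5p, the other arm of the same hairpins, was 0.0579 in 8T of L1-R2, and 0.0366 and 0.0406 in 2T and 7T of L1Mic-R2. That of miR-214 was 0.0272, 0.037 and 0.0627 in the same lines. None of these wells crossed the threshold, so that no difference between cluster partners could be computed within a line. One arm without the other was frequent, with 17 of the 48 pairs of 5p and 3p assays on the card detected through 1 arm alone in these lines, 18 through both and 13 through neither. Assays differ in their efficiency, and a Ct of one was not set against that of another as a level.

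The lines with miR-199a-3p did not stand apart in the number of microRNAs detected. They had 164 to 177 microRNAs detected, and the lines without it 160 to 184. The small RNA controls spanned 15.97 to 16.77 for U6, 23.67 to 25.97 for RNU44 and 18.81 to 20.97 for RNU48 over the 7 lines, so that the Undetermined wells lay on cards with early controls. A plant microRNA on the card, ath-miR159a, was Undetermined in all 7 lines. The cards were numbered 1 to 3 for L1-R2 and 4 to 7 for L1Mic-R2, so that card order and group cannot be told apart.

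Markers of muscle, blood and endothelium were read on the same cards. Of 6 muscle microRNAs on the card, 3 were below a Ct of 38 in any line, and none entered the test. MiR-1, which marks cardiac and skeletal muscle, was at 33.42 in L1-R2 line 8T and Undetermined in the other 6 lines. MiR-133a, its cluster partner, was at 36.71 in L1-R2 line 8T. In 7T, 3T and 8T of the L1Mic-R2 group it was at 35.57, 38.51 and 38.96, and it was Undetermined in the other 3 lines. MiR-499-5p, which lies in a myosin gene, was at 34.29 in L1-R2 line 4T alone. Muscle microRNAs with a Ct were thus found in lines with miR-199a-3p (8T of L1-R2 and 7T of L1Mic-R2) and in lines without it (4T of L1-R2, and 3T and 8T of L1Mic-R2). L1Mic-R2 line 2T, with miR-199a-3p, had none below 40, and the part of muscle RNA in the miR-199a-3p values was not tested.

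Of 7 blood cell microRNAs, 0 were below a Ct of 38 in all lines, and 2, the erythroid miR-451 and miR-142-5p, were Undetermined in all. Between 0 and 4 of the 7 were below it in a line, from 0 in L1Mic-R2 line 7T, a line with miR-199a-3p, to 4 in L1-R2 line 4T, a line without it. MiR-142-3p, found in blood cells of nearly every lineage, was at 35.93 and 36.03 in L1-R2 lines 4T and 3T and Undetermined elsewhere. MiR-223, of myeloid cells, was at 37.37 and 38.86 in L1-R2 lines 4T and 8T and Undetermined in line 3T, and was at 35.42, 35.35 and 36.07 in 2T, 3T and 8T of L1Mic-R2 and Undetermined in 7T. Its groups overlapped, and its log2 difference was 3.07 on normalized Ct (standard error 1.26, adjusted p = 0.245 from limma) and 2.03 on raw Ct. Without L1Mic-R2 line 7T the difference was 4.19 with an adjusted p of 0.00254 from limma. Leaving out any other single line gave an adjusted p between 0.296 and 0.455 from limma. The L1-R2 values lay near 40 after normalization, with a mean Ct of 39.57 ± 0.42 (SD) against 38.75 ± 1.32 on raw Ct. The call without line 7T thus also rests on late and Undetermined wells.

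MiR-150, of mature lymphocytes, had earlier Ct values in every L1-R2 line, at 34.93, 34.91 and 33.09 in lines 4T, 3T and 8T, than in L1Mic-R2, at 35.54 and 37.46 in lines 2T and 8T and Undetermined in 3T and 7T. The groups did not overlap, as for 19.3% of the microRNAs tested (35 of 181), and its log2 difference of -3.35 (standard error 1.31) had an adjusted p of 0.220 from limma. It rests on the 40 set for the Undetermined wells, and was -2.35 with every Ct limited to 38 and -0.53 with Ct limited to 35. MiR-486-5p was below 38 in L1-R2 line 4T alone (37.14) and miR-486-3p in L1Mic-R2 line 2T alone (35.86).

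MiR-126, a microRNA of the endothelial gene EGFL7, was detected in all 7 lines, as 35.8% of the 377 microRNAs were. It was at 34.50, 32.46 and 35.06 in 4T, 3T and 8T of L1-R2 and at 30.98, 31.75, 28.71 and 32.41 in 2T, 3T, 7T and 8T of L1Mic-R2 (raw Ct). Every L1Mic-R2 line was earlier than every L1-R2 line, but on raw Ct L1Mic-R2 line 8T (32.41) and L1-R2 line 3T (32.46) almost met. On normalized Ct the groups did not overlap either, as for 19.3% of the microRNAs tested (35 of 181). The log2 difference of miR-126 was 3.44 on normalized Ct (standard error 0.98) and 3.04 on raw Ct. It did not pass the adjusted threshold (adjusted p = 0.104 from limma on normalized Ct). Among the lines with miR-199a-3p, L1Mic-R2 lines 7T and 2T had the earliest miR-126 Ct of all 7 and L1-R2 line 8T the latest. Its level in an endothelial cell was not measured here, and the part of endothelial RNA in the miR-199a-3p values was not tested.

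**Figure D4:**
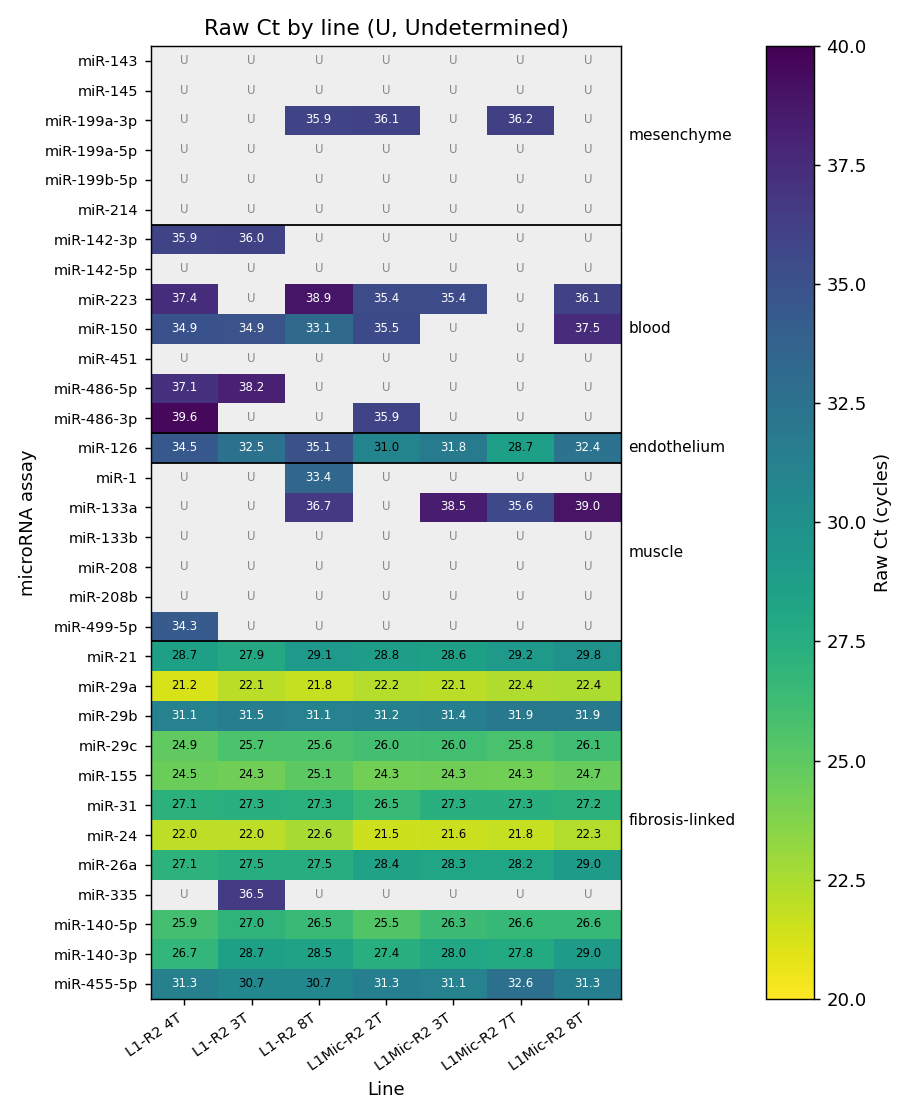
Raw Ct in cycles, printed and colored, of the mesenchymal, blood, endothelial, muscle and fibrosis-linked microRNAs (rows) in the 7 lines (columns), with U on grey for Undetermined. The mesenchymal rows hold 3 values, the muscle and blood rows hold scattered late values, miR-126 is present throughout, and 11 of the 12 fibrosis-linked microRNAs are below a Ct of 38 in every line.

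Other microRNAs linked to fibrosis, a list chosen with earlier results of these data known, were mostly detected in the same lines. Of 12, 11 were below a Ct of 38 in all 7 lines, against 35.8% of the 377 microRNAs. MiR-21, which is induced in many activated and tumor cells, was among the 11 (27.94 to 29.83). MiR-29a, which acts on collagen mRNAs, ran from 21.24 to 22.45, and miR-24 from 21.52 to 22.62. MiR-335 was detected in L1-R2 line 3T alone (36.51). None of the 11 tested passed the adjusted threshold from limma in either direction (4.97% of all tested did). At an unadjusted p under 0.05 there were 2 of the 11, against 19.3% of all tested, both with a lower level in L1Mic-R2. They were miR-26a (log2 difference -0.75, standard error 0.16, adjusted p = 0.0545 from limma) and miR-29c (-0.48, standard error 0.14, adjusted p = 0.113 from limma). With RNU44 and RNU48 as the reference, miR-26a was at -0.29 and miR-29c at 0.25. The median log2 difference of the 11 was -0.25, and that of all 181 was 0.06.

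The identity of the lines was read against its own markers in the same way. MDA-MB-435 was long used as a breast cancer line and was later found to match a melanoma line. Of 9 microRNAs of melanocytes and melanoma on the card, 6 were below a Ct of 38 in all 7 lines, and of 7 epithelial microRNAs 2 were, miR-200c (30.10 to 35.46) and miR-200b (32.57 to 36.76), against 35.8% of all 377. The 6 were miR-204, miR-506, miR-508-3p, miR-509-5p, miR-509-3-5p and miR-510, all but miR-204 of the miR-506 to miR-514 cluster. MiR-211, also on the melanocyte list, was Undetermined in L1Mic-R2 lines 2T and 8T and ran from 27.49 to 33.33 elsewhere. Of the same list, miR-513-5p was at 36.53 and 36.77 in 4T and 3T of L1-R2 and Undetermined elsewhere. MiR-507 was at 38.93 in L1Mic-R2 line 8T and Undetermined elsewhere. These lists, too, were chosen with earlier results of these data known. The melanocyte list had 6 to 8 members detected in each line, and the mesenchymal list had 0 or 1. Of the 7 melanocyte microRNAs tested 1 passed the adjusted threshold from limma (4.97% of all tested did). It was miR-509-3-5p, lower in L1Mic-R2 by a log2 difference of -2.71 (standard error 0.53, adjusted p = 0.0392), a call lost in 16 of 19 alternatives, each omission of a line among them. At an unadjusted p under 0.05 there were 4, against 19.3% of all tested, all with a lower level in L1Mic-R2 on quantile-normalized Ct. They were miR-204 and, from the miR-506 to miR-514 cluster, miR-508-3p, miR-509-5p and miR-509-3-5p. With RNU44 and RNU48 as the reference, miR-509-3-5p was at -2.15 and the median of all 181 was 0.56. The direction of miR-204, miR-508-3p and miR-509-5p with that reference was not read here. The median log2 difference of the 7 was -0.95, and that of all 181 was 0.06. For the 4 epithelial microRNAs tested the median was -1.33, with 1 lower at an unadjusted p under 0.05 and 0 past the adjusted threshold, against the same shares of all tested.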

How the data were processed

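Total RNA of 3 L1-R2 and 4 L1Mic-R2 lines was profiled on TaqMan Human MicroRNA Array A cards, 1 per line. The authors used SDS RQ Manager and deposited a Ct for each well, in cycles on a log2 scale, before quantile normalization, with a threshold of 0.3 in every well. The Ct of RNU48 is repeated in each row, and the column of fluorescence has no header. Groups follow the labels. File names exchange L1-R2 lines 3T and 4T. The labels mention SYBR and mammary injection, where the methods of the study describe TaqMan assays and tail vein injection.

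The members were found by assay name, and the members, marker lists and tests were chosen with earlier results of these data known. Here the 381 assays of each card were quantile normalized together with limma 3.58.1 in R 4.3.3. MicroRNAs with a raw Ct below 38 in at least 3 of 7 lines were tested with limma (lmFit and eBayes on 40 minus the Ct, p adjusted by Benjamini-Hochberg over all of them), and log2 differences are L1Mic-R2 minus L1-R2. Exact permutation tests (scipy 1.17.1) used the absolute difference of means over all 35 splits. The functions were tested on simulated data.

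Named are the 6 members, the control RNAs, blood, endothelial and muscle microRNAs with a Ct below 38 in at least 1 line, and the fibrosis-linked one of lowest Ct (miR-29a by its lowest well, miR-24 by its mean). The rule for microRNAs with a like pattern needed a member detected in all 7 lines and named none. Others were named after their values were seen (miR-21, miR-26a, miR-29c, miR-142-5p, miR-200b, miR-200c, miR-204, miR-211, miR-335, miR-451, miR-506, miR-507, miR-508-3p, miR-509-5p, miR-509-3-5p, miR-510, miR-513-5p). MiR-206 and miR-514 were not analysed here. Alternatives were other normalizations, Ct limits, filters and fits, the line number as a replicate block, and leaving out each line in turn.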

Additional observations from a re-analysis of the deposited data

Results flagged for a closer look

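In 12 sets of 4 L1Mic-R2 values that vary, a test for a single value far from the other 3 found 2, where chance gives about 0.6. That figure is for continuous values, which sets with values tied at 40 are not. For miR-223, line 7T was Undetermined (normalized Ct 40), whereas the other lines were between 35.25 and 35.51, a gap of 0.944 of the range. For miR-486-3p, line 2T was at 35.78 and the other 3 were Undetermined, a gap of 1, a set in which 1 detected value is always far from the rest. Of those 3, L1Mic-R2 line 3T had a fluorescence of 0.299, just under the threshold of 0.3. No member of the mesenchymal clusters stood out in this way, and all but miR-199a-3p were read by fluorescence below the threshold alone.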

How the results depend on the processing

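The number of members at an adjusted p under 0.05 from limma was 0 and stayed 0 under all 19 alternatives, with 0 at an unadjusted p under 0.05 in each. MiR-199a-3p could not be tested when detection in all 7 lines was required or when L1-R2 line 8T, L1Mic-R2 line 2T or L1Mic-R2 line 7T was left out, since fewer than 3 lines then remained with a Ct, and with Ct limited to 35 it had no difference. Its log2 difference of 0.39 was between 0.07 (Ct limited to 38) and 1.36 (RNU44 and RNU48) in the other fits of all lines without a block. It reversed to -2.07 with the replicate block of line numbers, by the labels and by the file names (adjusted p = 0.597 and 0.656 from limma). It ran from -0.31 to 1.06 when single lines were left out, negative without L1-R2 line 4T (-0.30) or line 3T (-0.31). Only lines 3T and 8T share numbers between the groups, the block leaves 1 residual degree of freedom, and the deviations of same-numbered lines from their group means had correlations of -0.04 and -0.20 across microRNAs, so that no pairing was seen. Over all microRNAs the block moved the adjusted calls from 9 to 0. They were 21 with trend and robust, 14 with detection in all lines, 0 with RNU44 and RNU48, without a detection filter and with the two-tailed Student test, and 0 to 4 with a line left out. MiR-126 passed with trend and robust (adjusted p = 0.0289 from limma, 0.0289 to 0.54 over its alternatives), and miR-223 without L1Mic-R2 line 7T. MiR-26a passed in 5 of 19 alternatives and miR-29c in 2, and miR-29c reversed to 0.25 with RNU44 and RNU48. MiR-509-3-5p stayed past the threshold in 3 of 19 (adjusted p from 0.0167 to 0.54 from limma), with a lower level in L1Mic-R2 in each. Differences within a line between cluster partners were not run, because no line had a Ct for both. The cause of these changes was not tested.

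With 1 well per card and a late Ct, a change in miR-199a-3p below several cycles is not detectable here. For the other members only a Ct beyond 40 is known.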
